A study of Bos taurus with 10 samples.

Results

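The genes described here encode the proteases of the lysosome, the proton pump that acidifies it and the glycoproteins that line its membrane, measured in bovine corpus luteum. The members are the cathepsins (CTS followed by 1 letter), the subunits and accessory proteins of the vacuolar proton pump (names that begin with ATP6V or ATP6AP), and LAMP1, LAMP2 and LAMP3. They were taken by gene symbol alone, from probesets that the platform annotation pairs with exactly 1 symbol. This gave 39 genes out of 18010 named genes on the array: 13 cathepsins, 20 pump subunits, 3 accessory proteins of the pump and 3 LAMP genes. Each of the 39 had 1 probeset, and all 39 carried a gene identifier found under the same symbol in the current cattle gene table. The probeset for ATP6V1F also names a second gene and was left out.

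The tissue came from cows (Bos taurus) given selenium in 1 of 2 forms, and the labels name the 2 groups only as MIX and ISe, without dose, breed or age. The 5 MIX samples carry the numbers 1, 8, 9, 10 and 11, and the 5 ISe samples the numbers 2, 3, 5, 6 and 7. All 10 corpora lutea were collected 7 days into the estrous cycle, and total RNA of each was hybridised to 1 single-colour whole-transcript array. Nothing in the labels ties a sample to an animal of its own, so the p-values cover no more than the spread among these 10 samples, which may be technical in part. Both groups received selenium, and no unsupplemented group was analysed here.

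The corpus luteum is the gland that forms from the ovulated follicle and secretes progesterone. Lysosomes are the acidic compartments in which cells digest proteins, lipids and worn-out organelles. The pump is built of a cytosolic V1 sector, which splits ATP, and a membrane V0 sector, which moves protons, and several of its subunits exist as paralogs restricted to certain tissues. Cathepsins are made as inactive precursors and work best at acid pH, in phagocytes and antigen-presenting cells as well as in most other cells. In the corpus luteum, lysosomes also release cholesterol from lipoprotein for progesterone synthesis, and they take part in the removal of the gland when it regresses.

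The values are on a log2 scale, with array medians between 5.99 and 6.04, and a difference is MIX minus ISe in log2 units. Correlations between arrays ran from 0.980 to 0.990, and no array was a copy of another. The tissue carried its defining markers: CYP11A1, the side-chain cleavage enzyme, averaged 12.99 in MIX and 13.01 in ISe, and none of the 8 steroidogenic markers measured had a mean below the array medians. In earlier results of these data, several gene lists depended on MIX 1 and MIX 8, so a number of values are given with and without both. In pieces of whole tissue, fewer cells of a type and less RNA per cell cannot be told apart. The precision is limited by the number of arrays. Signals of different genes come from different probes and were not set against each other.

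The lysosomal genes showed small differences between the 2 forms of selenium, and no member passed the adjusted threshold. Of the genes with the higher mean in MIX, the cysteine cathepsins CTSS and CTSB and the membrane glycoprotein LAMP3 had the smallest p-values, and they averaged 1.22-fold, 1.16-fold and 1.24-fold of ISe in MIX. Those of the pump's commonly used subunits that were measured differed little, with log2 differences from -0.08 to 0.08. Of the 39 genes, 29 had a higher mean in MIX (74.4%), against 50.4% of all 19145 probesets tested, with a median difference of 0.04 for the members and 0.001 for all probesets. At an unadjusted p under 0.05, limma gave 4 of 39 members (10.3%), against a background of 4.79%. Of the 4, CTSS, CTSB and LAMP3 had the higher mean in MIX (background 2.67%) and ATP6V1E2 the lower (background 2.12%). Called at an adjusted p under 0.05 were 0 members and 0% of all probesets, and the smallest adjusted p of a member was 0.941 by limma. By the exact permutation test 5 of 39 members had p under 0.05, these 4 and ATP6V1G2, against a background of 4.72%. The 2 groups overlapped for every one of the 39 genes, where 0.642% of all probesets had groups that did not overlap.

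**Figure D1:**
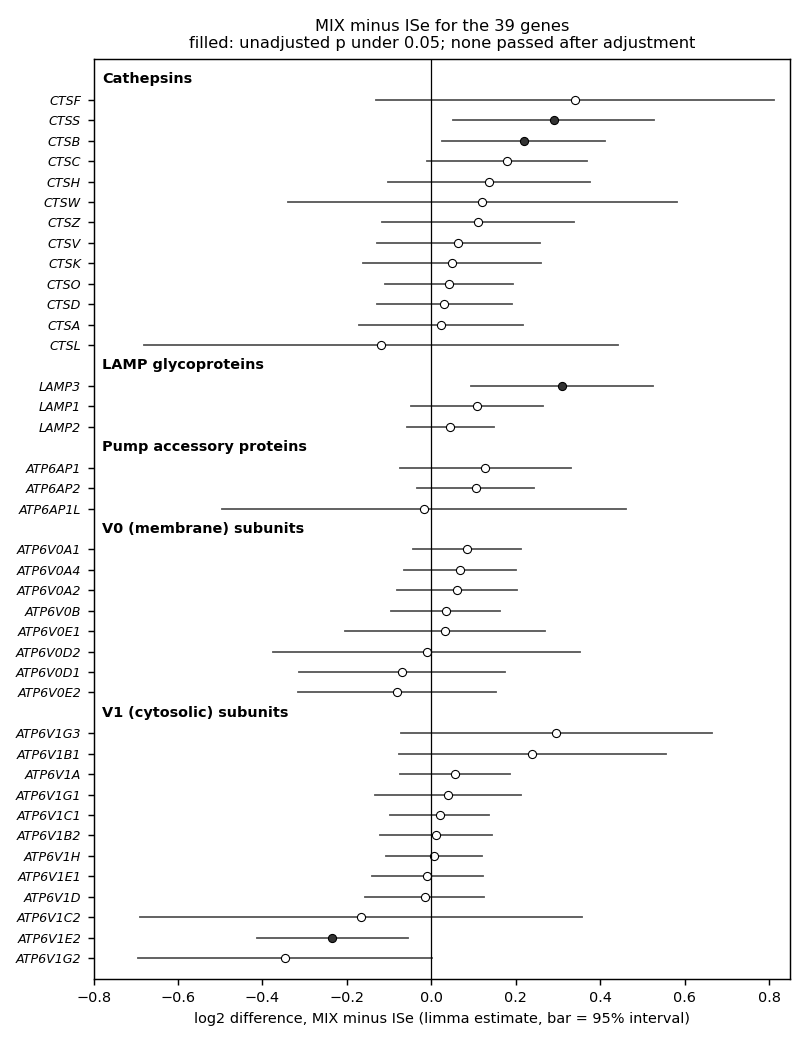
Log2 difference, MIX minus ISe, for each of the 39 genes, grouped by role, with the 95% interval of the limma fit as a bar. Filled points mark the 4 genes with an unadjusted p under 0.05. Pump subunits with means above the array medians lie close to 0, whereas the wide intervals include those of CTSL, ATP6V1C2, ATP6AP1L, CTSF and CTSW.

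CTSS, a cysteine protease that trims the invariant chain of class II molecules in antigen-presenting cells, had log2 signals of 9.36, 9.46, 9.14, 9.40 and 9.30 on MIX 1, 8, 9, 10 and 11. The ISe arrays 2, 3, 5, 6 and 7 gave 8.85, 9.31, 9.18, 9.10 and 8.77. MIX 1, MIX 8 and MIX 10 lay above all ISe arrays, while ISe 2 and ISe 7 lay below all others. The group means were 9.33 ± 0.12 for MIX (SD, n = 5) and 9.04 ± 0.23 for ISe (SD, n = 5), a difference of 0.29 ± 0.11 (SE) with a 95% interval of the fold from 1.04 to 1.44. The unadjusted limma p was 0.0218 and the adjusted p 0.941. By the exact two-sided permutation test p was 0.0397, where 5 against 5 arrays allow no value under 0.00794. The unadjusted limma p rose above 0.05 when MIX 8 (0.0507), ISe 2 (0.0559) or ISe 7 (0.0554) was left out, and to 0.106 when MIX 1 and MIX 8 were left out.

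CTSB, an abundant cysteine protease with endopeptidase and carboxypeptidase activity, gave 10.50, 10.69, 10.41, 10.74 and 10.35 on MIX 1, 8, 9, 10 and 11. Its ISe values were 10.36, 10.39, 10.33, 10.38 and 10.14 on arrays 2, 3, 5, 6 and 7. Of the MIX arrays, 4 lay above the highest ISe array, and MIX 11 lay inside the ISe range. The difference was 0.22 ± 0.09 (SE), an interval of 1.02-fold to 1.33-fold, with an unadjusted limma p of 0.0300, an adjusted p of 0.941 and an exact permutation p of 0.0397. The unadjusted limma p was 0.0706 without MIX 8, 0.0756 without MIX 10, 0.0772 without ISe 7, and 0.109 with both MIX 1 and MIX 8 left out.

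CTSC, or dipeptidyl peptidase I, which activates the serine proteases of leukocyte granules, gave 8.70, 8.77, 8.65, 8.95 and 8.68 in MIX. The ISe arrays gave 8.57, 8.74, 8.65, 8.56 and 8.33, so that 2 MIX arrays lay above all of ISe. Its difference was 0.18 ± 0.09 (SE), with an unadjusted limma p of 0.0613. CTSH, an aminopeptidase, had a mean of 8.00 ± 0.12 for MIX and 7.87 ± 0.23 for ISe (SD, n = 5 each). CTSZ, a carboxypeptidase also called cathepsin X, had a mean of 8.98 ± 0.17 for MIX and 8.87 ± 0.18 for ISe. The CTSH difference of 0.14 was 0.03 without ISe 7. On ISe 7, 5 of the 13 cathepsins had their lowest value of the 10 arrays: CTSB, CTSC, CTSH, CTSS and CTSZ.

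CTSD, the main aspartic protease of the lysosome, lay between 11.47 and 11.69 in MIX and between 11.44 and 11.74 in ISe. In MIX 1, 8, 9, 10 and 11 it had 11.61, 11.53, 11.47, 11.69 and 11.52, and in ISe 2, 3, 5, 6 and 7 it had 11.74, 11.44, 11.52, 11.45 and 11.52. The highest and the lowest array were both ISe, and the interval of the fold, 0.915 to 1.14, bounded any difference in signal. CTSA, a serine carboxypeptidase that also protects β-galactosidase and neuraminidase, differed by 0.02 ± 0.09 (SE), with an interval of 0.888-fold to 1.16-fold. CTSO, a cysteine cathepsin, stood at 0.04 ± 0.07, and CTSV at 0.06 ± 0.09 (log2 difference ± SE).

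CTSK, a collagen-degrading protease best known from osteoclasts, is separated from CTSS by only 1 annotated gene on cattle chromosome 3, by the order of genes in the ARS-UCD2.0 assembly. It gave 10.36, 9.92, 9.96, 10.06 and 9.95 in MIX and 9.82, 9.97, 10.13, 10.13 and 9.97 in ISe. MIX 1 stood highest, and the other 4 MIX arrays lay within the ISe range. The difference was 0.05 ± 0.10 (SE), with a 95% interval from -0.16 to 0.26, and it was -0.01 ± 0.08 without MIX 1 and MIX 8.

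CTSF was uneven within MIX. This cysteine cathepsin, which can process the invariant chain in macrophages, had 10.23 on MIX 1 and 10.11 on MIX 8, but 9.39, 9.32 and 9.24 on MIX 9, 10 and 11. The ISe arrays gave 9.23, 8.98, 9.18, 9.67 and 9.52. MIX 1 and MIX 8 lay above all 8 other arrays, and the other 3 MIX arrays lay inside the ISe range. The difference of 0.34 ± 0.21 (SE), the highest estimate of the 39, had an unadjusted limma p of 0.140 and was -0.002 without MIX 1 and MIX 8. Its SD over the 10 arrays, 0.41, exceeded that of 98.2% of the 500 probesets nearest to it in mean level.

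CTSL and CTSW had means below the array medians, where signals are less certain. CTSL, a broadly acting endopeptidase, gave 4.66, 5.32, 5.76, 5.43 and 5.71 in MIX and 5.09, 5.52, 5.42, 5.14 and 6.30 in ISe. MIX 1 was the lowest and ISe 7 the highest, and the difference of -0.12 ± 0.26 (SE) had the opposite sign when MIX 1 (0.06), ISe 7 (0.08), or both MIX 1 and MIX 8 (0.14) were left out. The current gene table lists CTSL among the older names of CTSV, so the probesets of CTSL and CTSV are named here only as the platform annotation has them, and probes could be shared between such close relatives.

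CTSW, a cathepsin of cytotoxic lymphocytes, is given by array because of its spread, a choice made after its values were seen. It gave 5.48, 6.48, 5.50, 6.52 and 5.89 in MIX, against 5.70, 6.04, 6.02, 5.66 and 5.84 in ISe. MIX 8 and MIX 10 stood above all other arrays, and MIX 1 and MIX 9 below all others. Its SD was 0.51 in MIX and 0.18 in ISe. The mean of 16 T and NK cell markers, expressed as deviation from each marker's mean, was also highest on MIX 8 and MIX 10. It was -0.23, 0.49, 0.13, 0.49 and 0.06 on MIX 1, 8, 9, 10 and 11. On ISe 2, 3, 5, 6 and 7 it was -0.22, 0.13, -0.30, -0.15 and -0.40. The 2 did not match on every array: CTSW was low on MIX 9, and on ISe 7, the lowest for the markers, it lay inside the ISe range. Of these markers 14 had the higher mean in MIX, 4 at an unadjusted limma p under 0.05 (background 4.79%), and 13 had means below the array medians. Their summed level ran from 80.0 to 91.5 in MIX and from 77.2 to 85.6 in ISe. The part of these cells in the CTSW values was not tested.

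**Figure D2:**
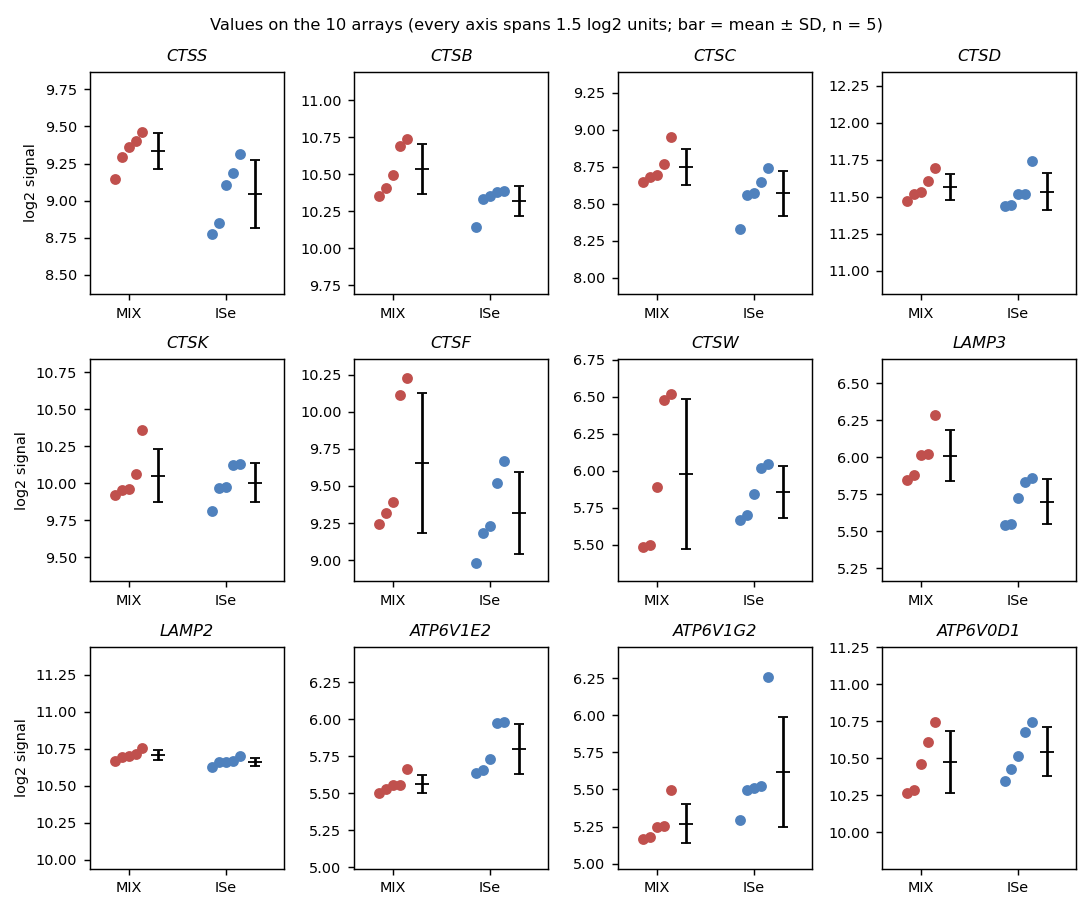
Log2 signal of 12 members on each of the 10 arrays, with MIX left of ISe and the mean ± SD beside the points (n = 5). Every vertical axis spans 1.5 log2 units. CTSS, CTSB and LAMP3 have most MIX arrays above most ISe arrays, CTSF has 2 MIX arrays far above the rest, and LAMP2 spans 0.13 log2 over all 10 arrays.

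Each member was set against the mean of a list of macrophage markers that holds none of the members, and no relation passed after adjustment over all probesets. Of 21 markers measured, 21 had a higher mean in MIX and 15 an unadjusted limma p under 0.05, with a median difference of 0.41 log2, against 50.4% and 4.79% of all probesets. With MIX 1 and MIX 8 left out the second count was 12, against 5.01% of all probesets. The summed level of the list ran from 144.0 to 147.7 in MIX and from 134.0 to 142.3 in ISe. As a mean deviation it was 0.17, 0.29, 0.11, 0.29 and 0.14 on MIX 1, 8, 9, 10 and 11, against -0.30, 0.03, -0.24, -0.11 and -0.37 on ISe 2, 3, 5, 6 and 7. ISe 7, where 5 cathepsins had their lowest value, was also the lowest for the markers. The T and NK cell marker mean was likewise highest on MIX 8 and MIX 10 and lowest on ISe 7. Members were set against the macrophage list alone, so a relation to it is not shown to be particular to macrophages. Of the defining markers, SIGLEC1, MARCO and TREM2 had means below the array medians, while CD68, CD14 and C1QA did not.

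CTSS followed the macrophage marker mean most closely of the 39 members, with Pearson's r of 0.90 over the 10 arrays (permutation p = 0.00033) and Spearman's rho of 0.90 (permutation p = 0.00084). The r of CTSS ranked 18 among all 19145 probesets, a list that also holds the markers themselves. CTSB had r = 0.84 (permutation p = 0.00096) and rho = 0.85 (permutation p = 0.0030), and CTSC r = 0.83 (permutation p = 0.00043) and rho = 0.89 (permutation p = 0.00114). Without ISe 7 and ISe 2, the arrays farthest from the median of the marker mean, r was 0.79 for CTSS, 0.79 for CTSB and 0.71 for CTSC (exact permutation p = 0.0211, 0.0264 and 0.0486). With those arrays left out, 4 of 39 members had a permutation p under 0.05, against a background of 5.41%: these 3 and ATP6V1G3.

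Since the marker mean itself separated the groups, the relations were also computed after each group's mean was subtracted from both measures. Then r was 0.88 for CTSS, 0.80 for CTSC and 0.72 for CTSB (exact permutation p within groups = 0.00458, 0.0108 and 0.00618), and 0.76 for CTSZ (0.0144). In all 5 of 39 members had such a p within groups, the fifth being CTSA, against a background of 5.69%. LAMP3 and ATP6V1E2, with r = 0.70 and r = -0.67 over the 10 arrays, had r = 0.19 and r = -0.13 within groups. For CTSH and CTSZ the pooled r of 0.61 and 0.65 was 0.15 and 0.39 without ISe 7 and ISe 2. Those arrays had the lowest marker means, and leaving them out narrows the range of the markers. The lower r therefore does not show what these relations rest on. For CTSD, CTSK and CTSL, r was 0.01, 0.20 and -0.28 over the 10 arrays, and -0.27, 0.11 and -0.32 within groups. The value for CTSD depended on the arrays used, since without ISe 7 and ISe 2 its r was 0.57 (exact permutation p = 0.135) and its rho 0.77 (exact permutation p = 0.0314).

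In this family of 39 relations, 7 had a permutation p under 0.05 for r, against a background of 5.82% of all probesets, and 6 of the 7 were positive (background 3.23%). Adjusted over all 19145 probesets none passed, with adjusted p = 0.296 for CTSS, 0.324 for CTSC and 0.438 for CTSB by the permutation test, and 0% of all probesets passed. Macrophage number, cathepsin level per macrophage and cathepsin signal from other cells cannot be told apart in these samples. The part of each in the group difference was not tested.

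**Figure D3:**
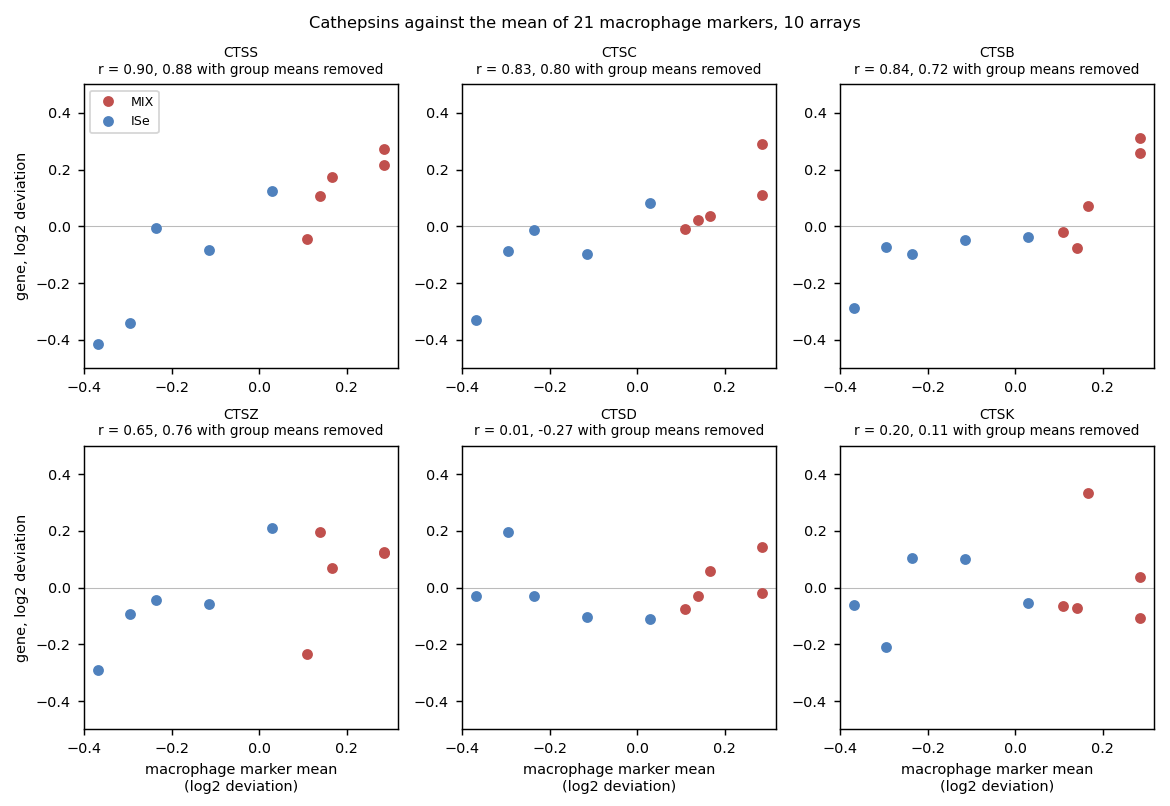
Deviation of 6 cathepsins from their own mean (vertical, log2) against the mean deviation of 21 macrophage markers (horizontal, log2) on 5 MIX and 5 ISe arrays. Over all 10 arrays r is 0.90 for CTSS, 0.83 for CTSC and 0.84 for CTSB, against 0.88, 0.80 and 0.72 with group means removed, whereas CTSD and CTSK have r of 0.01 and 0.20 over all 10 arrays.

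The LAMP proteins are heavily glycosylated and protect the lysosomal membrane from the enzymes inside. LAMP3, also called DC-LAMP and known in human tissue from mature dendritic cells, had the smallest p of the 39 genes. It gave 5.84, 6.01, 6.02, 6.28 and 5.88 on MIX 1, 8, 9, 10 and 11, against 5.73, 5.54, 5.83, 5.86 and 5.55 on ISe 2, 3, 5, 6 and 7. Of the MIX arrays 4 lay above the highest ISe array, and MIX 1 lay just below it. The difference was 0.31 ± 0.10 (SE), with an unadjusted limma p of 0.00912, an adjusted p of 0.941 and an exact permutation p of 0.0159. It ran from 0.24 without MIX 10 to 0.36 without MIX 1 and MIX 8, and the unadjusted limma p stayed under 0.05 with any 1 array left out. Its mean signal, 6.01 in MIX and 5.70 in ISe, lay at or below the array medians, where differences are less certain.

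LAMP1 and LAMP2 are the abundant proteins of the lysosomal membrane. LAMP1 gave 9.78, 9.72, 9.57, 9.55 and 9.50 in MIX and 9.41, 9.48, 9.50, 9.58 and 9.62 in ISe. MIX 1 and MIX 8 were highest, and the difference of 0.11 ± 0.07 (SE) was 0.02 without them. LAMP2, which also serves chaperone-mediated autophagy, was the steadiest member, at 10.75, 10.70, 10.66, 10.70 and 10.72 in MIX and 10.66, 10.63, 10.66, 10.66 and 10.70 in ISe. Its SD over the 10 arrays was 0.04, at percentile 1.0 among the 500 probesets nearest in mean level. The fold had an interval of 0.961 to 1.11.

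The core subunits of the proton pump that were measured differed little between the groups. ATP6V0C and ATP6V1F were not among them. Of the 20 subunits measured, 13 had means above the array medians, and their differences ran from -0.08 (ATP6V0E2) to 0.08 (ATP6V0A1). Over these 13 subunits, the 95% interval of the fold reached no lower than 0.804 and no higher than 1.21. ATP6V1A, the catalytic subunit that binds ATP, gave 9.04, 9.04, 9.19, 8.96 and 9.16 in MIX and 9.04, 9.04, 8.96, 9.04 and 9.03 in ISe. MIX 9 and MIX 11 were the highest, MIX 10 and ISe 5 the lowest, and the fold had an interval of 0.950 to 1.14. The deposited value was identical, 9.04434, on MIX 1, MIX 8, ISe 2, ISe 3 and ISe 6. Other members also held equal values on several arrays, among them ATP6V0D2, ATP6V1G3 and CTSV. The source of such ties is not known, and they can lower the SD of a gene. The other V1 subunits of this kind were the non-catalytic ATP6V1B2 at 0.01 ± 0.06, the peripheral stalk subunits ATP6V1C1 at 0.02 ± 0.05, ATP6V1E1 at -0.01 ± 0.06 and ATP6V1G1 at 0.04 ± 0.08, the central stalk subunit ATP6V1D at -0.02 ± 0.06 and ATP6V1H at 0.01 ± 0.05 (log2 difference ± SE).

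With both groups pooled, those 13 subunits had SDs over the 10 arrays from 0.05 (ATP6V1H) to 0.18 (ATP6V0D1). For 9 of the 13 the SD fell in the lowest 30% of the 500 probesets nearest in mean level, while ATP6V0D1, ATP6V0E1 and ATP6V0E2 stood at percentiles 82, 80.8 and 72.4. In the membrane sector, ATP6V0A1 and ATP6V0A2, isoforms of the large proton-conducting subunit, were at 0.08 ± 0.06 and 0.06 ± 0.06 (log2 difference ± SE). ATP6V0A1 was highest on MIX 8 and MIX 1, and its difference was 0.03 ± 0.06 without both. ATP6V0B, part of the proteolipid ring, was at 0.03 ± 0.06. TCIRG1, the third isoform of the large subunit and outside the naming rule, was at 0.02 ± 0.09.

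ATP6V0D1, ATP6V0E1 and ATP6V0E2 were the most variable of the core subunits, with SDs of 0.18, 0.17 and 0.17 over the 10 arrays. ATP6V0D1, which couples the ring to the central stalk, gave 10.28, 10.26, 10.61, 10.74 and 10.46 in MIX and 10.74, 10.68, 10.43, 10.35 and 10.52 in ISe. MIX 1 and MIX 8 were its lowest arrays, and its difference of -0.07 ± 0.11 (SE) was 0.06 ± 0.11 without them. ATP6V0E1, a small membrane subunit, was likewise lowest on MIX 1, at 10.36, and its difference of 0.03 ± 0.11 was 0.18 ± 0.09 without MIX 1 and MIX 8. Neither passed an unadjusted limma p of 0.05 in either setting.

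The remaining 7 subunits had means below the array medians: ATP6V0A4, ATP6V0D2, ATP6V1B1, ATP6V1C2, ATP6V1E2, ATP6V1G2 and ATP6V1G3. In human and mouse these are the paralogs of restricted tissues, such as kidney for ATP6V1B1, ATP6V0A4 and ATP6V1G3, testis for ATP6V1E2 and brain for ATP6V1G2. Their differences ran from -0.35 to 0.30 and their SDs from 0.08 to 0.42. ATP6V0A4 was the steadiest of the 7, with a fold interval from 0.956 to 1.15. Such dim signals may hold background of the probes, which this table does not separate from transcript.

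ATP6V1E2 was the only member with an unadjusted limma p under 0.05 and the lower mean in MIX. It gave 5.50, 5.66, 5.53, 5.56 and 5.56 on MIX 1, 8, 9, 10 and 11, against 5.64, 5.66, 5.73, 5.97 and 5.98 on ISe 2, 3, 5, 6 and 7. Of the MIX arrays 4 lay below the lowest ISe array. The difference was -0.23 ± 0.08 (SE), with p = 0.0150 unadjusted and 0.941 adjusted by limma, and an exact permutation p of 0.0238. Its paralog ATP6V1E1 differed by -0.01 ± 0.06.

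ATP6V1G2 gave 5.17, 5.18, 5.50, 5.26 and 5.25 in MIX, against 5.29, 6.26, 5.52, 5.50 and 5.51 in ISe. ISe 3 stood far above the other arrays. The difference of -0.35 ± 0.16 (SE) was -0.19 without ISe 3, and its unadjusted limma p was 0.0502, against an exact permutation p of 0.0238. ATP6V1G3 gave 4.03, 4.59, 3.94, 4.03 and 4.18 in MIX and 4.03, 3.85, 3.30, 3.95 and 4.16 in ISe, and its difference of 0.30 ± 0.17 (SE) was 0.16 without ISe 5 and 0.19 without MIX 8. Both differences moved with a single array.

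ATP6V1C2 gave 5.19, 5.58, 5.64, 5.64 and 4.87 in MIX and 6.18, 4.86, 5.30, 5.84 and 5.56 in ISe, with the highest and the lowest array both in ISe. ATP6V0D2, the isoform of the coupling subunit known from osteoclasts and macrophages in mouse, gave 2.89, 3.58, 3.30, 3.55 and 2.69 in MIX and 3.30, 3.30, 3.11, 3.31 and 3.05 in ISe. Its SD was 0.40 in MIX and 0.12 in ISe, where ISe 2 and ISe 3 held exactly equal values. The difference of ATP6V0D2 was -0.01 ± 0.16 (SE). ATP6V1B1 had a mean of 5.35 ± 0.30 for MIX and 5.11 ± 0.19 for ISe (SD, n = 5 each), with MIX 8 highest at 5.85, and its difference of 0.24 was 0.11 without MIX 8.

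Of the accessory proteins, ATP6AP2, the prorenin receptor, which is needed for pump assembly, gave 10.51, 10.54, 10.61, 10.31 and 10.46 in MIX. The ISe arrays stood between 10.34 and 10.42, at 10.41, 10.34, 10.42, 10.37 and 10.36. In MIX 4 arrays lay above all of ISe, while MIX 10 was the lowest of all, and the SD was 0.11 in MIX and 0.03 in ISe. The difference of 0.10 ± 0.06 (SE) had an unadjusted limma p of 0.124. ATP6AP1, also called Ac45, was at 0.13 ± 0.09, or 0.22 ± 0.09 with MIX 1 and MIX 8 left out, where its unadjusted limma p was under 0.05. Without MIX 9, its highest array, it was 0.06, so its size turned on single MIX arrays.

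ATP6AP1L, a gene named for its likeness to ATP6AP1, varied widely in both groups. It gave 8.98, 8.45, 9.10, 9.51 and 8.47 in MIX and 8.68, 8.90, 9.31, 8.53 and 9.17 in ISe. Its SD of 0.37 exceeded that of 98.6% of probesets of like level, and the difference between the groups was -0.02 ± 0.22 (SE).

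**Figure D4:**
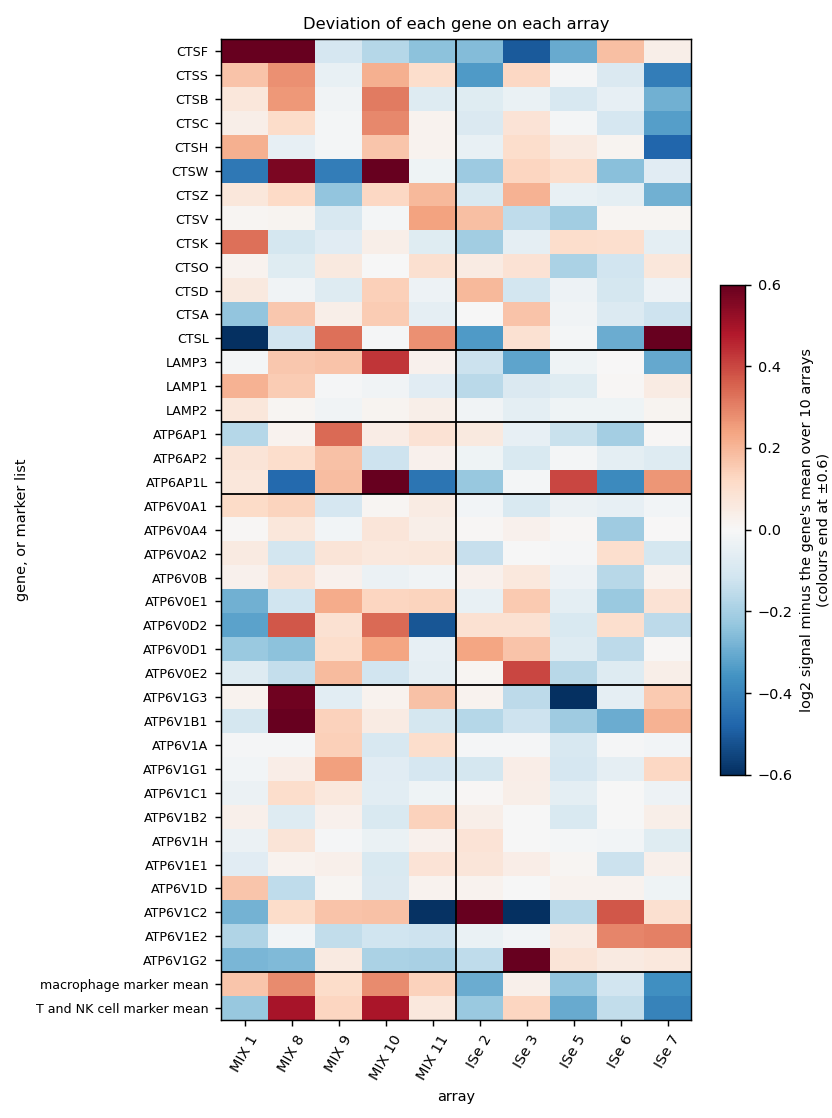
Deviation of each of the 39 genes from its own mean over the 10 arrays (colour, log2, ending at ±0.6), by role, with the macrophage and the T and NK cell marker means in the bottom rows. MIX arrays are on the left. Most core subunits of the pump are pale across the arrays, CTSF is dark on MIX 1 and MIX 8, and CTSS, CTSB and CTSC share the blue of the macrophage row on ISe 7.

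Other lysosomal genes were taken as lists, to be read against the background of 4.79% at an unadjusted limma p under 0.05. Of 38 genes of the lysosomal membrane and export route, 4 (10.5%) had such a p, all with the higher mean in MIX, and 26 had a higher mean in MIX. They were CD68, the phagocyte sialomucin that is also among the macrophage markers, at 0.52 ± 0.11, NPC2, which hands cholesterol to NPC1, at 0.28 ± 0.09, LAPTM5, of leukocyte lysosomes, at 0.40 ± 0.14, and SLC11A1, a metal transporter of phagocytes, at 0.20 ± 0.09 (log2 difference ± SE). Of 37 acid hydrolases, 4 (10.8%) had such a p, 3 with the higher and 1 with the lower mean in MIX, and with MIX 1 and MIX 8 left out 1 did. MAN2B1, the acid α-mannosidase, was at 0.36 ± 0.12, ACP5, tartrate-resistant acid phosphatase, at 0.33 ± 0.14, LIPA, the acid lipase that frees cholesterol, at 0.33 ± 0.14, and NAGLU, which degrades heparan sulfate, at -0.18 ± 0.08. Of the membrane genes, 4 had such a p with MIX 1 and MIX 8 left out, all with the higher mean in MIX (background 5.01% in either direction). With all arrays, the medians of the lists were 0.04 for the membrane genes and 0.01 for the hydrolases.

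Of 9 genes listed as further lysosomal peptidases, SCPEP1, a serine carboxypeptidase, at 0.26 ± 0.10 and CPQ, a carboxypeptidase, at 0.26 ± 0.11 (log2 difference ± SE) had an unadjusted limma p under 0.05. With MIX 1 and MIX 8 left out, 1 of the 9 had such a p, with the lower mean in MIX. The other 7 had no such p, among them GGH at 0.11 ± 0.07 and PLBD1, by name a phospholipase B-like protein and not a peptidase. Of 8 cathepsin inhibitors, 0 had such a p, and 5 had a lower mean in MIX. CST7, a cystatin of immune cells, stood at 0.27 ± 0.14, CSTA at -0.14 ± 0.08 and CST6 at -0.09 ± 0.07. The same count was 0 of 14 genes listed as assembly factors and partners of the pump, led by VMA21 at 0.07 ± 0.06, NCOA7 at 0.20 ± 0.17 and TLDC2 at 0.09 ± 0.09. That list also holds TCIRG1, a subunit isoform, and ATPAF2, an assembly factor of the mitochondrial ATP synthase. The count was also 0 of 38 autophagosome genes, led by ULK1 at 0.17 ± 0.11, VPS39 at 0.08 ± 0.06 and ATG9A at 0.13 ± 0.09.

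Of 23 genes of the TFEB and mTORC1 machinery at the lysosome, TFEC, a relative of TFEB, had an unadjusted limma p under 0.05, at 0.21 ± 0.09 (log2 difference ± SE), but not with MIX 1 and MIX 8 left out, followed by FLCN at 0.12 ± 0.07 and NPRL3 at -0.09 ± 0.06. TFEB, the transcription factor known to activate lysosomal genes, was at 0.003 ± 0.06, averaging 5.62 in both groups. That is below the array medians, where signals are less certain, as are the means of TFEC, SLC11A1, CST7, CSTA and TLDC2. No gene of these lists passed the adjusted threshold by limma. Of the other cell type lists, 1 of 12 endothelial markers, 1 of 5 erythrocyte markers and 0 of 7 B and plasma cell, 8 neutrophil and eosinophil, 8 steroidogenic and 9 fibroblast and pericyte markers had an unadjusted limma p under 0.05. All 12 endothelial markers had the higher mean in MIX (median difference 0.13), also with MIX 1 and MIX 8 left out (0.15, with 2 at that p). Of the fibroblast and pericyte markers, 3 of 9 had the higher mean in MIX, and 0 of 9 with those arrays left out. The part of either cell type in the members' values was not tested.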

How the data were processed

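The deposited table holds 1 log2 value per probeset and sample for 26773 probesets, processed by the authors before deposit. The submitters' processing notes name GCOS 1.2 and Partek without their roles. How background, probes and arrays were adjusted is not given in the sources used here. All 10 columns were used as deposited. Depth has no meaning for arrays, and the number of arrays limits precision.

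The platform annotation pairs 18457 probesets with 1 symbol and 688 with several, and these 19145 were tested by limma 3.58.1 in R 4.3.3 (lmFit, eBayes, two-sided, Benjamini-Hochberg over all 19145, threshold 0.05). Errors and 95% intervals come from that fit. It was tested on simulated data for the recovery of planted differences, all larger than those of the members. The coverage of the intervals was not checked. A gene with several probesets was represented by its brightest one. Relations to macrophage markers used 100000 permutations, or all permutations for subsets. They were adjusted over all probesets in place of the 39 relations first planned.

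All members are named. Values by array were given for the 8 members with the smallest p, the 4 with the largest SD and a fixed set, and up to 3 genes per pathway list by smallest p (SLC11A1, NAGLU, TCIRG1 and TFEB were added after their values were seen). Members and lists were chosen with earlier results of these data known. Alternatives were other normalisations, filters on dim probesets, other moderation, array weights and arrays left out. Figures used matplotlib 3.10.9. No sequences are shown.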

Additional observations from a re-analysis of the deposited data

Results flagged for a closer look

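In 10 of the 80 sets of 5 arrays examined (39 genes and the macrophage marker mean, in each group), 1 array lay far from the other 4 by Dixon's criterion. Chance flags about 1 in 20 such sets. On ISe 7, CTSB was 10.14, against 10.33 to 10.39 on the other ISe arrays, and CTSH was 7.46, against 7.89 to 8.04. CTSD was 11.74 on ISe 2, with 11.44 to 11.52 on the others. ATP6V1G2 was 5.50 on MIX 9, with the other MIX arrays at 5.17 to 5.26, and 6.26 on ISe 3, with the other ISe arrays at 5.29 to 5.52. ATP6V0A2 was 7.94 on MIX 8, below 8.11 to 8.13, and ATP6V0E2 was 7.45 on MIX 9, above 7.12 to 7.21. On ISe 5, ATP6V1A was 8.96, below 9.03 to 9.04, and ATP6V1B2 was 9.89, below 9.98 to 10.02. ATP6V0A4 was 4.04 on ISe 6, below 4.26 to 4.29. For ATP6V1A, ATP6V0A4 and CTSD, some of the other ISe arrays held exactly equal values, for a reason not known.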

How the results depend on the processing

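Over 21 alternative settings no member that was tested crossed the adjusted threshold. The exact permutation test, a further setting, gave members no adjusted p, so it could not show such a crossing. The number of probesets called over the whole table, 0 as reported, ran from 0 to 1 with 1 array left out. The 1 was RPL15, a ribosomal protein gene, without MIX 8, named after its value was seen. The number of members at an unadjusted p under 0.05, 4 as reported, was 2 without the dimmest 50% of probesets, a setting that removes 10 members, and ran from 2 (without MIX 8) to 5 (without MIX 9 or ISe 3) with 1 array left out. It was 6 with trended moderation (4 higher and 2 lower in MIX) and 5 with no moderation. It was 5 by the exact permutation test, against 4.72% of all probesets, and 3 without MIX 1 and MIX 8. The median member difference, 0.0447 as reported, ran from 0.0305 (without ISe 6) to 0.0646 (without MIX 1) with 1 array left out. The number of members related to the macrophage markers, 0 when adjusted over all probesets, was 3 (CTSS, CTSC and CTSB) when adjusted over the 39 relations alone, a choice that does not allow for how the members were picked. Under the adjustment over all probesets it was also 0 with Spearman's rho, with group means removed, without CD68, without MIX 1 and MIX 8, and without ISe 7 and ISe 2. The adjustment over all probesets, rho and the last setting were chosen after the data were seen. No paired analysis was possible because the groups share no sample number. Signals near or below the array medians, those of 10 members, limit what can be said of LAMP3, CTSW, CTSL and the pump's restricted paralogs.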
